A study of Homo sapiens with 8 samples.

Results

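The 10 genes described here are the ID family (ID1, ID2, ID3 and ID4), the feedback inhibitors SMAD6, SMAD7 and BAMBI, the ligand BMP4 and the receptors BMPR1A and BMPR2. They were chosen by name, through the current symbol of each gene identifier, and all 10 were found among the 57820 genes of the count table. The choice was made with earlier results of these data known. The authors had already reported ID3 as higher in SP cells. The libraries measured mRNA of side population (SP) and non-side population (NSP) cells sorted from J82, a line long established from a human bladder cancer and grown here in medium with serum. SP cells are the living cells that keep little of the DNA dye Hoechst when sorted, and NSP cells are the others. Both fractions came from this single line, carried no engineered gene and passed through the same dye and sort, so they differ by the sort gate. There were 4 libraries per group, with the replicate numbers 1 to 4 in each. The labels do not say that the replicates are separate cultures, so the p-values measure only the spread between these libraries.

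Bone morphogenetic proteins (BMPs) are secreted ligands that bring type I receptors such as BMPR1A together with type II receptors such as BMPR2. The receptors phosphorylate SMAD1, SMAD5 and SMAD9, which enter the nucleus with SMAD4 and switch on a small group of genes, the ID genes and SMAD6 among them. ID proteins have a helix-loop-helix region but no DNA-binding region, and they hold E proteins and related partners away from DNA. SMAD6, SMAD7 and BAMBI are induced by BMP or TGF-beta and dampen the signal, so the ID genes and these inhibitors often move together after a BMP pulse.

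The libraries held 1431823 to 1697218 counts in SP cells and 1489033 to 2073526 in NSP cells, and 3 counts corresponded to 1.48 to 2.21 CPM (the count per library size, normalised by the TMM method and scaled alike in all libraries). The 10 genes together held 1758 counts, which is 0.0133% of all counts. The urothelial and epithelial list was led by KRT8 (4166 to 7986 counts per library), KRT18 and KRT7, while UPK3A, KRT20 and TP63 were listed at 0 in every library. Its summed level was 3430 to 4783 CPM in SP cells and 4676 to 6414 CPM in NSP cells. Of its 15 genes, 5 were tested and KRT7 was called lower in SP cells (log2 fold change -1.35, adjusted p = 0.00342 from edgeR). Exons of KRT7 overlap exons of 3 genes on the opposite strand. The 4 mesenchymal markers summed to 283 to 450 CPM in SP cells and 501 to 873 CPM in NSP cells, and FN1 was called lower (log2 fold change -1.25, adjusted p = 8.63e-04 from edgeR). With the replicate number as a term of the fit, VIM was called lower as well (log2 fold change -0.75, adjusted p = 3.39e-06 from edgeR). Of the leukocyte, endothelial and erythroid markers found, PTPRC, CD3E and HBB were at 0 and CD14 alone was tested, at 67.0 ± 22.7 CPM in SP and 34.2 ± 17.2 CPM in NSP libraries (SD, n = 4 each; adjusted p = 0.135 from edgeR). CD14 was called higher in the fit with the replicate number (log2 fold change 1.01, adjusted p = 2.77e-06 from edgeR) and in that without a filter on low counts (adjusted p = 8.70e-04). The part of these markers in the results below was not tested. Among 595 pairs of a protein-coding gene and a lncRNA with exons across each other on opposite strands, the coding gene held 15.2% to 17.2% of the counts of SP libraries and 13.6% to 15.6% of those of NSP libraries. The strand setting of the counting is not given in the sources used here, and with so small a share on the coding genes the counts may be mostly of reads from the strand opposite to the transcript. That would bear on the level of all 10 genes, which are protein-coding, and on how many had enough counts to be tested. Its part in their values was not tested.

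ID3 was overexpressed in SP cells, and it was the only one of the 10 genes that passed the test. Since ID3 was included with this rise known, its call does not show that the set is richer in calls than other genes. Of the 10, 6 had enough counts to be tested, namely ID1, ID3, SMAD6, BAMBI, BMP4 and BMPR2, while ID2, ID4, SMAD7 and BMPR1A did not pass the filter on low counts. Of these 6 genes 1 was called higher and 0 were called lower in SP cells, where a call asked for an adjusted p under 0.05 and a fold over 1.3 (edgeR, Benjamini-Hochberg over 9309 genes). Over all tested genes 1.63% were called higher and 2.03% lower. These were 152 and 189 genes, and 113 and 224 with scaling factors taken from genes whose exons meet no exon on the opposite strand. Without a filter on low counts, which called 1.15% of 26361 genes higher and 1.45% lower, and with a replicate block (the replicate number as a term of the fit), which called 5.89% higher and 7% lower, ID3 was again the only one of the 10 genes called. Both fits take the spread mostly from all genes together, so their p-values reflect the spread of single genes less than the main test. In the main test the 6 genes again gave 1 higher and 0 lower by an unadjusted p under 0.05, beside 8.13% higher and 8.27% lower of all genes tested. The median log2 fold change of the 6 was 0.41, beside 0.015 over all tested genes. In bulk libraries like these, fewer cells that express a gene and less RNA of it per cell cannot be told apart.

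**Figure D1:**
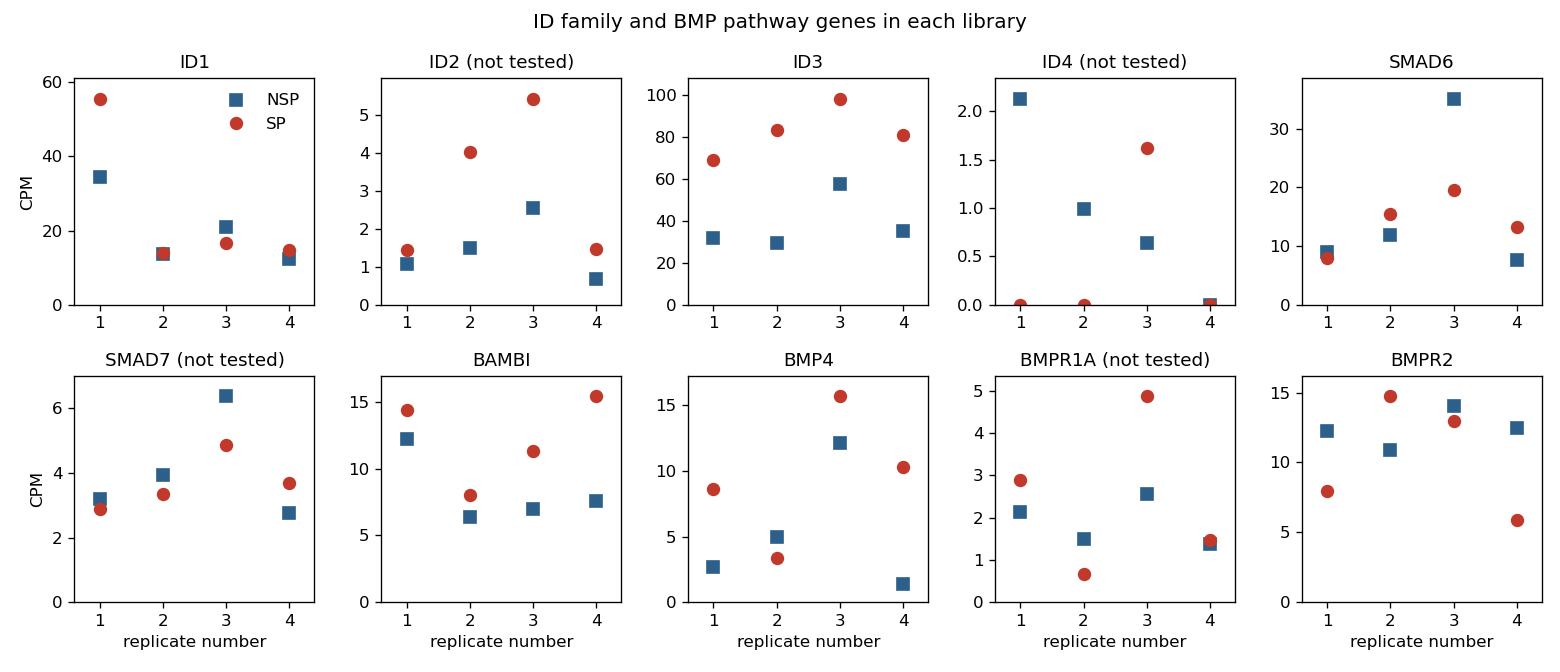
Expression of the 10 genes in CPM (vertical axis, a separate linear scale from 0 for each gene) by replicate number (horizontal axis), with red circles for SP and blue squares for NSP libraries, 1 point per library. In ID3 all SP points, at 69.2 to 98.0 CPM, lie above all NSP points, at 29.6 to 57.4 CPM, while in the other 5 tested genes the groups overlap and in ID1 replicate number 1 stands above the others in both groups.

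In counts, the ID family spans a wide range, and with the strand setting unknown this may not be the range of the mRNA levels. Per kb of exon, averaged over the 8 libraries, ID3 had 40.6 CPM and ID1 18.5 CPM, while ID2 had 1.02 CPM and ID4 0.174 CPM. On this scale ID3 and ID1 led the family, and the regions upstream of these genes are shown so that the pair can be read side by side. The lines give the 250 bases before the RefSeq transcription start in GRCh38.p14, 5′ to 3′ on the strand of the gene, for ID3 on the minus strand at chr1:23559502-23559751 and for ID1 on the plus strand at chr20:31605039-31605288. Capitals mark GTCTG on either strand (CAGAC where it lies on the other strand), the short element that SMAD proteins can bind, and TATAA on the plus strand of the gene.
ID3: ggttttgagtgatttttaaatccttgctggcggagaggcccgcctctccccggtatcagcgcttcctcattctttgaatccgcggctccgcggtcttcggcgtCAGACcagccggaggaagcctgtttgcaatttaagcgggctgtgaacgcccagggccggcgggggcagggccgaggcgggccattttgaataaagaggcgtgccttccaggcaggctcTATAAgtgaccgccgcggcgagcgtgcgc
ID1: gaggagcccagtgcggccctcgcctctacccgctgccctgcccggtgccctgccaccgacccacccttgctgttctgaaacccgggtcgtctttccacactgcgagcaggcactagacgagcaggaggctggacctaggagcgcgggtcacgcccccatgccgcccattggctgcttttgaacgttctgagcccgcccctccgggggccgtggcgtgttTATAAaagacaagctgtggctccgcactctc

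Both windows hold a TATAA close to the start, 29 bp before it in ID3 and 31 bp before it in ID1, and 13.6% of 35116 RefSeq windows of this length hold TATAA on the plus strand. ID3 has 1 GTCTG, 147 bp before the start, and ID1 has none in its window, where 38.0% of all windows hold this element on at least 1 strand. Another SMAD element, GGCGCC, is in neither window and in 16.4% of all windows. TGTTTAC, 1 form of the forkhead element, is in neither and in 2.98% of all. Other forms of the forkhead element were not counted, so the windows may hold some. GGCGCC was found in the windows of BAMBI (3 matches), BMPR2 (1 match) and, at 1 of its starts, BMP4 (1 match). These are matches of letters in a short window and carry no measurement of binding.

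ID3 (ENSG00000117318.8) is a minus-strand gene at 23884417 to 23885992 of chromosome 1 (GRCh37, used for all genes below), and its exons meet no annotated exon of the opposite strand. Its expression was 69.2, 83.1, 98.0 and 81.0 CPM in SP replicates 1 to 4 and 31.9, 29.6, 57.4 and 35.3 CPM in NSP replicates 1 to 4. Every SP library was above every NSP library. The groups did not overlap in ID3 alone among the 6 tested genes, beside 9.75% of all genes tested. Within the replicate numbers, the SP library was 2.17, 2.80, 1.71 and 2.30 times the NSP library. The log2 fold change was 1.11 (95% interval 0.66 to 1.56, adjusted p = 0.0085 from edgeR), a 2.16-fold higher level in SP cells, and an exact permutation test on log2(CPM + 1), two-sided, gave p = 0.0286, the smallest value that 4 libraries against 4 allow. With scaling factors from genes free of opposite-strand exons the log2 fold change was 1.04 (adjusted p = 0.0164 from edgeR). Leaving out any single library kept ID3 called, with adjusted p-values from edgeR up to 0.0424, the value without NSP replicate 2.

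ID1 (ENSG00000125968.7; chromosome 20, 30193086 to 30194318, plus strand), which is the ID gene most often read as a BMP target, had 55.5, 14.1, 16.8 and 14.7 CPM in SP replicates 1 to 4 and 34.6, 13.8, 21.0 and 12.4 CPM in NSP replicates 1 to 4. Replicate 1 was the highest library of both groups. The groups overlapped, although SP replicate 1 was above every NSP library. The log2 fold change of ID1 was 0.28 (interval -0.63 to 1.18, adjusted p = 0.814 from edgeR). Without SP replicate 1 it was -0.43. The value of ID3, 1.11, lies inside the interval of ID1.

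ID2 (ENSG00000115738.5; chromosome 2, 8818975 to 8824591, plus strand) held 2, 6, 10 and 2 counts in SP replicates 1 to 4 and 2, 3, 4 and 1 counts in NSP replicates 1 to 4. In CPM the SP library was above the NSP library in all 4 replicate pairs, at 1.44, 4.02, 5.41 and 1.47 CPM against 1.06, 1.48, 2.55 and 0.691 CPM. Among the 10 genes this was so for ID2, ID3 and BAMBI, and among all tested genes for 14.9%. Without a filter on low counts, the log2 fold change of ID2 was 1.09 (interval -0.21 to 2.39, adjusted p = 0.618 from edgeR), a value near that of ID3 with a far wider interval. The exons of ID2 overlap those of ID2-AS1 on the other strand by 145 bp, and ID2-AS1 held 1 count, in SP replicate 3.

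ID4 (ENSG00000172201.6; chromosome 6, 19837601 to 19842428, plus strand) was near the limit of detection. It held 3 counts in SP replicate 3 and 0 in the other SP libraries, and 4, 2, 1 and 0 counts in NSP replicates 1 to 4. Since 3 counts are the limit that a count of 0 allows, a difference in ID4 was not detectable.

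Among the feedback inhibitors, none passed the test. BAMBI (ENSG00000095739.7; chromosome 10, 28966439 to 28971861, plus strand), a decoy receptor without a kinase domain, had 14.4, 8.04, 11.4 and 15.5 CPM in SP replicates 1 to 4 and 12.2, 6.42, 7.02 and 7.61 CPM in NSP replicates 1 to 4. The SP library was above its NSP partner in all 4 pairs, but SP replicate 2 and SP replicate 3 were below NSP replicate 1. Its log2 fold change was 0.55 (interval -0.12 to 1.21, adjusted p = 0.418 from edgeR).

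SMAD6 (ENSG00000137834.10; chromosome 15, 66994574 to 67075187, plus strand), the inhibitory SMAD of the BMP branch, had 7.93, 15.4, 19.5 and 13.2 CPM in SP replicates 1 to 4 and 9.04, 11.9, 35.1 and 7.61 CPM in NSP replicates 1 to 4. NSP replicate 3 was the highest of all 8 libraries, and 2 of the 4 pairs had SP above NSP. The log2 fold change was -0.14 (interval -1.05 to 0.76, adjusted p = 0.910 from edgeR), and it was 0.56 without NSP replicate 3. SMAD7 (ENSG00000101665.4; chromosome 18, 46446223 to 46477335, minus strand), the inhibitory SMAD that also acts on the TGF-beta branch, held 4, 5, 9 and 5 counts in SP replicates 1 to 4 and 6, 8, 10 and 4 counts in NSP replicates 1 to 4. Its log2 fold change without a filter was -0.13 (interval -1.14 to 0.87). The intervals of both inhibitory SMADs hold 0 and reach beyond 0.7 on the log2 scale in either direction.

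BMP4 (ENSG00000125378.11; chromosome 14, 54416454 to 54425479, minus strand) was the only BMP ligand with enough counts to be tested. GDF11 and GDF15 were tested too, and are listed below with the TGF-beta and activin ligands. It had 8.65, 3.35, 15.7 and 10.3 CPM in SP replicates 1 to 4 and 2.66, 4.94, 12.1 and 1.38 CPM in NSP replicates 1 to 4. The groups overlapped, and SP was above NSP in 3 of 4 pairs. The log2 fold change was 0.88 (interval -0.23 to 1.99, adjusted p = 0.437 from edgeR), and it was 1.603 without NSP replicate 3 and 0.49 without SP replicate 3. With the replicate number as a block it was 0.83 (interval 0.11 to 1.56, unadjusted p = 0.0252, adjusted p = 0.128, both from edgeR), so BMP4 was not called in that fit either. Its exons overlap those of the lncRNA ENSG00000287156 on the other strand by 506 bp, for which the count table has no row.

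Of the receptors, BMPR2 (ENSG00000204217.8; chromosome 2, 203241050 to 203432474, plus strand), the type II BMP receptor, had 7.93, 14.7, 12.99 and 5.89 CPM in SP replicates 1 to 4 and 12.2, 10.9, 14.0 and 12.4 CPM in NSP replicates 1 to 4. Its values overlapped between the groups, with a log2 fold change of -0.23 (interval -0.87 to 0.42, adjusted p = 0.781 from edgeR). BMPR1A (ENSG00000107779.7; chromosome 10, 88516353 to 88692582, plus strand), a type I receptor, held 4, 1, 9 and 2 counts in SP replicates 1 to 4 and 4, 3, 4 and 2 counts in NSP replicates 1 to 4, and its log2 fold change without a filter was 0.42 (interval -0.88 to 1.71). Per kb of exon, averaged over the 8 libraries, BAMBI had 4.82 CPM, BMP4 2.39 CPM and SMAD6 1.75 CPM. SMAD7 followed at 0.984 CPM, BMPR2 at 0.911 CPM and BMPR1A at 0.216 CPM, so that all 6 were below ID1 and ID3 on this scale.

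**Figure D2:**
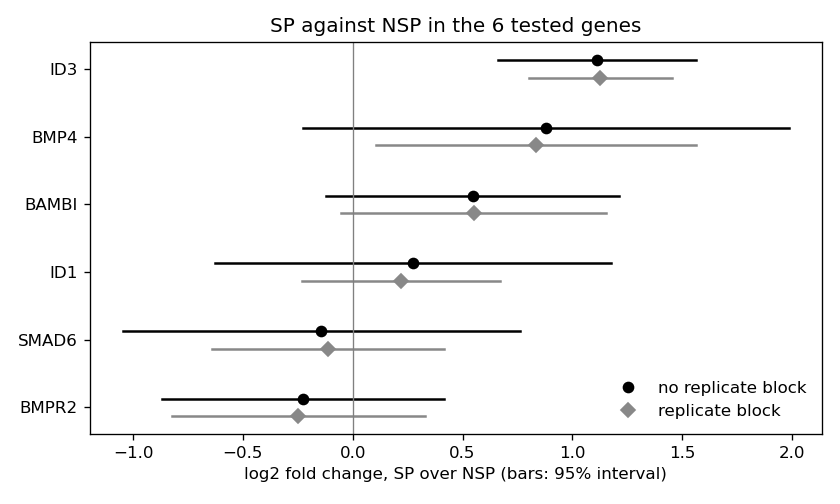
Log2 fold change of SP over NSP (horizontal axis) for the 6 tested genes, without the replicate block (black circles) and with it (grey diamonds), with 95% intervals as bars. The interval of ID3, 0.66 to 1.56, lies above 0 in both fits, that of BMP4 does so only with the block, and the intervals of the other 4 genes hold 0 in both.

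To test whether ID3 changed more than the other genes, the ratio of ID3 counts to those of another gene was formed within each library, which needs no scaling between libraries. A total of 6 ratios were compared between SP and NSP libraries. Those to ID1 and ID2 were planned, and those to SMAD6, BAMBI, BMP4 and BMPR2 were added after seeing the data. ID3 had 1.25, 5.90, 5.84 and 5.50 times the counts of ID1 in SP replicates 1 to 4 and 0.923, 2.14, 2.73 and 2.83 times in NSP replicates 1 to 4. SP was above NSP in 4 of 4 pairs, but SP replicate 1 was below 3 NSP libraries. The difference of the log2 ratio to ID1 was 0.98 (exact two-sided permutation test, p = 0.2, adjusted p = 0.3 over the 6 ratios), and the same statistic permuted within the pairs gave p = 0.125, the smallest value that 4 pairs allow. The ratio to ID2 differed by 0.24 on the log2 scale (exact permutation p = 0.6, adjusted p = 0.72) and was higher in SP cells in 3 of 4 pairs.

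The ratios of ID3 to SMAD6 and to BMPR2 did not overlap between the groups. They were 5.03 to 8.73 in SP and 1.64 to 4.64 in NSP libraries for SMAD6, and 5.64 to 13.8 in SP and 2.61 to 4.09 in NSP libraries for BMPR2. The log2 differences were 1.101 and 1.46 (exact permutation p = 0.0286 each, adjusted p = 0.0857 over the 6 ratios). This is the smallest p that 4 libraries against 4 allow, and the adjusted p could pass only with at least 4 of the 6 ratios at it, so the adjusted value could not have passed here. The ratio to BAMBI differed by 0.58 (exact permutation p = 0.143, adjusted p = 0.286) and that to BMP4 by 0.11 (exact permutation p = 0.83 before and after adjustment), with SP above NSP in 4 and 2 of 4 pairs. Thus ID3 alone passed the test against NSP cells. Of its 6 ratios, those to SMAD6 and BMPR2 were fully apart between the groups, but ID3 itself did not overlap between them. How many other genes would give such a ratio was not counted. No ratio passed after adjustment, so for none of the 6 genes was a change unlike that of ID3 shown with these 4 libraries per group.

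**Figure D3:**
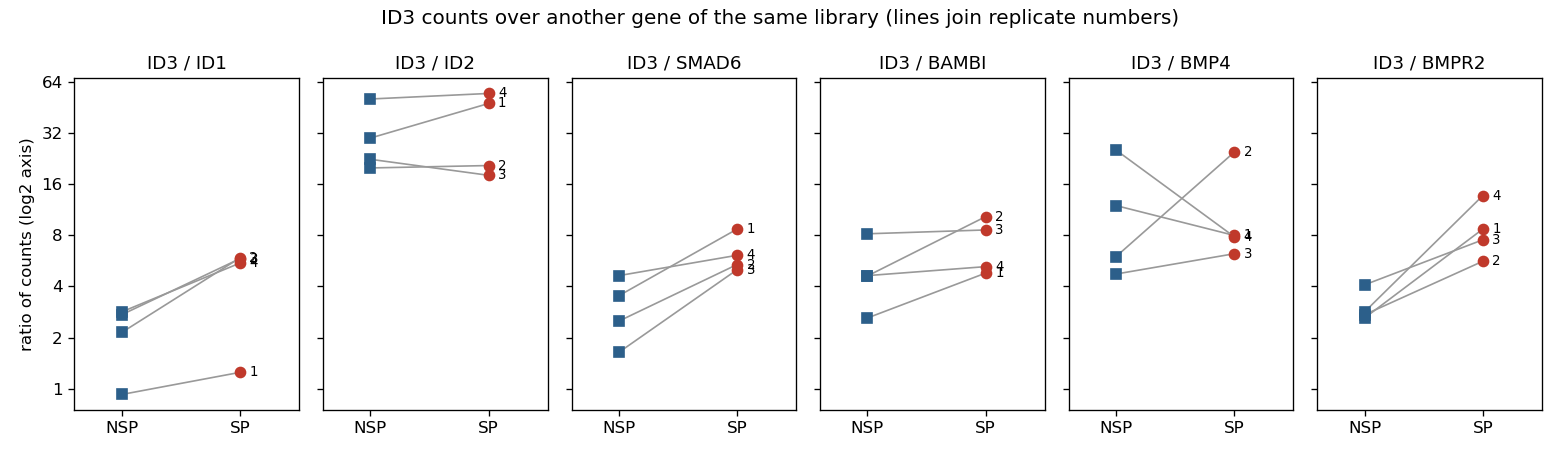
Ratio of ID3 counts to the counts of another gene of the same library, with nothing added to either (vertical axis, log2 scale shared by the panels), in NSP (blue squares) and SP (red circles) libraries, with lines that join libraries of the same replicate number. The groups are apart for SMAD6 and BMPR2, replicate number 1 lies below the others for ID1, and the lines to BMP4 cross.

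Some of these genes also differed between the replicate numbers. With SP against NSP in the model, a test of the replicate number, chosen after seeing the data, passed in 3 of the 6 tested genes and in 11.5% of all tested genes (edgeR, adjusted p under 0.05). This fit takes the spread mostly from all genes together, so its p-values reflect little of the spread of each gene. The 3 genes were ID1 (adjusted p = 2.17e-06 from edgeR), SMAD6 (adjusted p = 8.89e-04) and BMP4 (adjusted p = 0.0268). For ID1 the mean of the SP and NSP libraries was 45.0 CPM at number 1 and 13.6 to 18.9 CPM at the others. SMAD6 and BMP4 were highest at number 3, with means of 27.3 and 13.9 CPM, and the highest number was 3.22 and 3.36 times the lowest. ID3 differed 1.54-fold between its highest and lowest numbers (adjusted p = 0.116 from edgeR), which is less than its difference between SP and NSP cells. For BAMBI and BMPR2 the adjusted p-values of the same edgeR test were 0.455 and 0.724.

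Some of these calls rest on single libraries. Without NSP replicate 3, the adjusted p-values from edgeR were 0.332 for SMAD6 and 0.368 for BMP4. The call of BMP4 was also lost without SP replicate 2 (adjusted p = 0.126 from edgeR) and without SP replicate 3 (adjusted p = 0.0924), where ID3 passed (adjusted p = 0.0499). ID1 passed without each library in turn. DESeq2's likelihood-ratio test of the replicate number called 0 of the 10 genes. It gave ID3 an adjusted p of 0.483 and left the others without an adjusted p, with unadjusted p-values of 1.78e-04 for ID1 and 0.0154 for SMAD6.

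The other genes of the BMP and TGF-beta pathways were read from 10 lists. Together with the 10 genes above, they hold 129 genes of the table, of which 43 were tested. ID3 and SMAD3 were called higher and TGFB2 was called lower. These 43 genes thus gave 2 and 1 calls where 1.63% and 2.03% of all tested genes were called. With the replicate block 5 were called higher and 7 lower, beside 5.89% and 7% of all tested genes. The median log2 fold change of the 43 was 0.049. The lists share members, so their counts do not add up. Exons of TGFB1, TGFB2, ENG, RGMB, SMAD3, FSTL1, FKBP1A, PMEPA1, JUNB, TWIST1, CDKN1A and CDKN2A overlap exons of a gene on the opposite strand, and without the strand setting reads of the overlap cannot be told apart from those of that gene.

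Among the ligands, 1 of the 15 genes in the BMP and GDF list was tested, BMP4, and it was not called. GDF11 and GDF15 were placed in the TGF-beta and activin list. Of 15 TGF-beta and activin ligands 4 were tested, 0 were called higher and TGFB2 was called lower. TGFB2, one of the TGF-beta isoforms, held 22, 26, 20 and 16 counts in SP replicates 1 to 4 and 43, 57, 44 and 46 counts in NSP replicates 1 to 4. Its expression was 14.0 ± 3.17 CPM in SP and 27.7 ± 3.67 CPM in NSP libraries (SD, n = 4 each), with a log2 fold change of -0.99 (adjusted p = 0.0274 from edgeR). The call was lost without NSP replicate 2, 3 or 4 and without SP replicate 3 or 4, with log2 fold changes of -1.12 to -0.87 over all single libraries left out. TGFB1, the isoform that most cells make, was at 801 ± 38.0 CPM in SP and 1146 ± 158 CPM in NSP libraries (SD, n = 4 each; log2 fold change -0.52, adjusted p = 0.0637 from edgeR). It was called lower by DESeq2 (adjusted p = 0.0051). With the replicate block, TGFB1 (adjusted p = 0.00227 from edgeR) and GDF15, a stress-induced ligand (log2 fold change -0.73, adjusted p = 0.00144), were called lower as well, so that 3 of 4 tested ligands were lower in that fit, which called 7% of all tested genes lower.

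Of 17 receptors and co-receptors, 5 were tested, with a median log2 fold change of -0.11, and 0 were called in either direction (1 higher and 0 lower by unadjusted p under 0.05). RGMB, a BMP co-receptor, had 61.2 ± 36.7 CPM in SP and 35.9 ± 11.7 CPM in NSP libraries (SD, n = 4 each; log2 fold change 0.78, adjusted p = 0.286 from edgeR). RGMB was called higher with the replicate block (log2 fold change 0.69, adjusted p = 0.00256 from edgeR) and without a filter on low counts (adjusted p = 0.0179 from edgeR). Within the replicate numbers, its SP library was 1.05, 2.01, 2.04 and 1.24 times the NSP library. Its exons overlap, on the other strand, RGMB-AS1 by 363 bp and the lncRNA ENSG00000279232, for which the table has no row, by 2682 bp. ENG, the TGF-beta co-receptor endoglin, had a log2 fold change of -0.11 (adjusted p = 0.908 from edgeR).

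Of the 6 SMADs that carry the signal, 3 were tested, namely SMAD2, SMAD3 and SMAD4. SMAD3, which carries TGF-beta and activin rather than BMP signals, was called higher, and SMAD1, SMAD5 and SMAD9 of the BMP branch did not pass the filter. SMAD3 held 71, 36, 82 and 38 counts in SP replicates 1 to 4 and 27, 37, 25 and 19 counts in NSP replicates 1 to 4. Its level was 36.9 ± 12.9 CPM in SP and 15.4 ± 2.22 CPM in NSP libraries (SD, n = 4 each), with a log2 fold change of 1.25 (adjusted p = 0.0140 from edgeR) and SP above NSP in all 4 pairs. It was called with each library left out in turn, at 1.06 to 1.41. SMAD4, the partner shared by both branches, had a log2 fold change of 0.14 (adjusted p = 0.840 from edgeR).

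The inhibitors outside the 10 genes stayed below the threshold. Of 16 secreted antagonists 3 were tested and 0 were called in either direction, with 0 at an unadjusted p under 0.05 and a median log2 fold change of -0.081. FSTL1 was at 355 ± 76.0 CPM in SP and 290 ± 32.7 CPM in NSP libraries (SD, n = 4 each), FSTL3 at 34.1 ± 8.23 and 36.0 ± 11.2 CPM, and BMPER at 5.09 ± 2.68 and 7.85 ± 3.37 CPM. Of 14 intracellular inhibitors 9 were tested and 0 were called in either direction, with 1 higher and 0 lower by unadjusted p under 0.05 and a median of 0.15. Among them FKBP1A, a protein that holds type I receptors inactive, had a log2 fold change of 0.12 (adjusted p = 0.814 from edgeR), and SKI, a nuclear corepressor of SMADs, one of -0.068 (adjusted p = 0.910). With the replicate block, 0 genes of either list were called.

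No response gene outside the ID family was called in the main test, which had the filter on low counts and no replicate block. Of 16 BMP response genes outside the ID family 3 were tested (SMAD6, BAMBI and RUNX2) and 0 were called in either direction, also with the replicate block, with a median log2 fold change of 0.049 and 0 at an unadjusted p under 0.05. Of 13 TGF-beta response genes 10 were tested and 0 were called in either direction, with 2 higher and 3 lower by unadjusted p under 0.05 beside 8.13% and 8.27% of all tested genes, and a median of 0.043. With the replicate block, the CDK inhibitor gene CDKN2B was called higher (log2 fold change 0.52, adjusted p = 0.00427 from edgeR), and PMEPA1, a TGF-beta-induced inhibitor of SMAD signalling, and TGFBI, a matrix protein named for its induction by TGF-beta, were called lower. PMEPA1 was at 5.79 ± 4.67 CPM in SP and 16.4 ± 4.35 CPM in NSP libraries (SD, n = 4 each; log2 fold change -1.56, adjusted p = 0.0634 and, with the block, 7.72e-05 from edgeR). TGFBI was at 8.10 ± 3.65 CPM in SP and 20.1 ± 9.74 CPM in NSP libraries (SD, n = 4 each; log2 fold change -1.32, adjusted p = 0.0817 and, with the block, 2.15e-04 from edgeR). Without a filter on low counts, PMEPA1 and TGFBI were called lower as well (adjusted p = 5.90e-04 and 0.00121 from edgeR). JUNB, an early response gene, had a log2 fold change of 0.32 (adjusted p = 0.482 from edgeR).

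Of 18 E proteins and class II helix-loop-helix partners, the proteins that ID proteins bind or keep from their sites, 3 were tested and 0 were called in either direction, with 1 higher and 1 lower by unadjusted p under 0.05. TWIST1, a class II factor, had a log2 fold change of 0.99 (adjusted p = 0.0728 from edgeR), TCF12 one of 0.60 (adjusted p = 0.317) and TCF3, which encodes the E proteins E12 and E47, one of -0.44 (adjusted p = 0.111). With the replicate block, TWIST1 was called higher (adjusted p = 0.0202 from edgeR) and TCF3 lower (adjusted p = 0.0186). Of 5 CDK inhibitor genes tied to ID proteins 4 were tested and 0 were called in either direction, with 2 higher and 1 lower by unadjusted p under 0.05. With the block, CDKN2B was called higher and CDKN1A, the gene of p21, lower (log2 fold change -1.16, adjusted p = 0.0126 from edgeR). CDKN2A, the gene of p16, had a log2 fold change of -0.18 (adjusted p = 0.582 from edgeR).

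**Figure D4:**
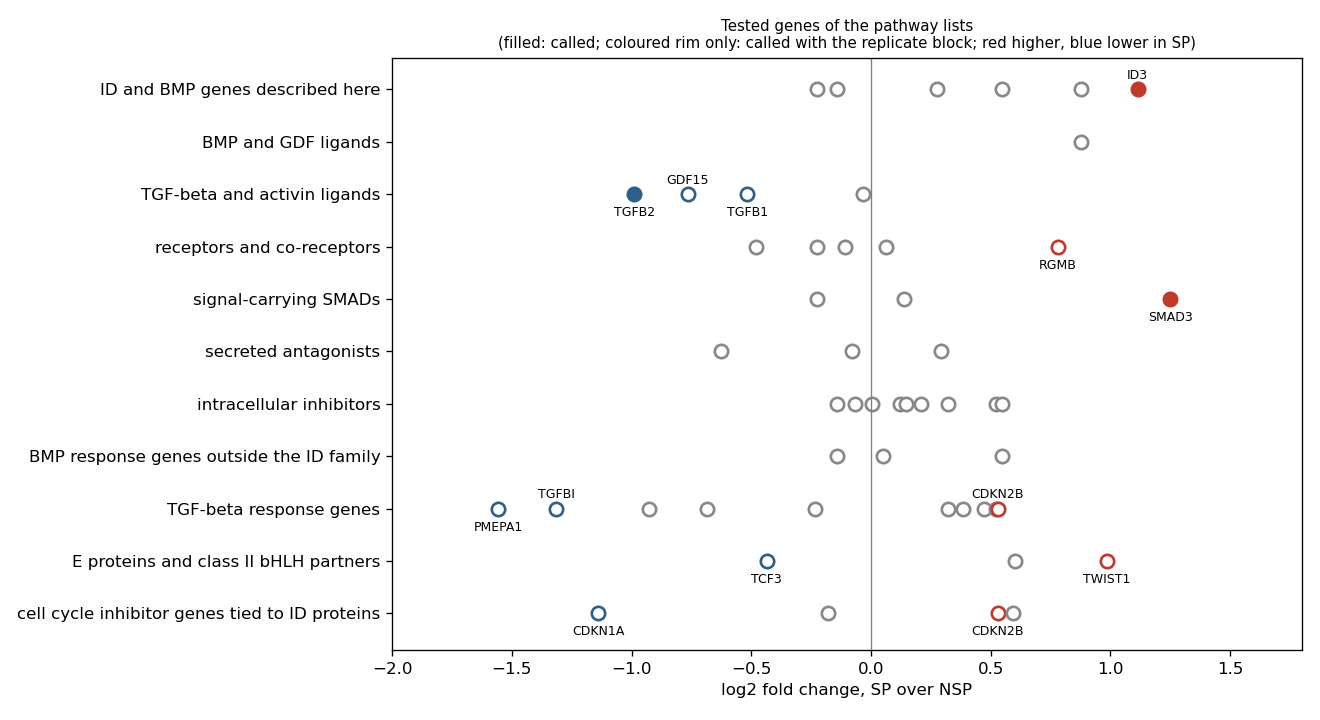
Log2 fold change of SP over NSP (horizontal axis) for the tested genes of the 10 genes described here and of each pathway list (rows, 1 circle per gene). Filled circles mark genes called in the main test, and coloured rims alone mark those called with the replicate block but not in the main test. Red is for higher and blue for lower in SP cells. ID3 and SMAD3 are the filled circles on the right, TGFB2 is the one on the left, and genes that belong to several lists appear in each.

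No tested gene near ID3 passed the test. Of 70 genes with any part within 1 Mb of the ID3 start, 13 were tested and 0 were called higher or lower, with log2 fold changes of -0.57 to 0.80 and 6 of 13 above 0. The 2 nearest tested genes were RPL11, a ribosomal protein gene 132240 bp away with a log2 fold change of 0.052, and ELOA-AS1, a lncRNA 147399 bp away with one of -0.036 (adjusted p = 0.918 and 0.946 from edgeR). Exons of ELOA-AS1 overlap those of the coding gene ELOA on the other strand by 770 bp. ELOA-AS1 held 557 counts in SP and 650 in NSP libraries, and ELOA 193 and 247, and reads of the overlap cannot be assigned without the strand setting. The highest value was that of LUZP1, a leucine zipper protein gene 381691 bp away, which was called with the replicate block (log2 fold change 0.80, adjusted p = 0.0751 and, with the block, 0.0104 from edgeR).

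The genes whose profile over the 8 libraries was most like that of ID3 were PARD6B, ENSG00000005955.8, PPP2R5B, NAV2 and C1orf198, with a root mean square distance of 0.192 to 0.219 in log2(CPM + 1) after centring each gene on its own mean. These points share the same libraries and depth, and the genes were picked for a profile like that of ID3, so the likeness and the values that follow are a description and no separate evidence. PPP2R5B, a regulatory subunit of protein phosphatase 2A, was among the genes called higher (log2 fold change 1.12, adjusted p = 0.0121 from edgeR), as was the uncharacterised C1orf198 (log2 fold change 0.87, adjusted p = 0.0177), whose call was lost without NSP replicate 1, NSP replicate 2 or SP replicate 4. PARD6B, a cell polarity gene, had a log2 fold change of 0.96 and NAV2 one of 0.88, and neither was called in the main test (adjusted p = 0.135 and 0.0710 from edgeR). NAV2 was called higher with the replicate block and without a filter on low counts (adjusted p = 6.65e-04 and 0.0158 from edgeR).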

How the data were processed

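The authors sequenced mRNA libraries of SP and NSP cells (KAPA mRNA HyperPrep, single-end 50-bp reads), aligned the reads to hg19 with STAR, assigned them to gencode version 19 genes with featureCounts of Subread and deposited raw counts per gene, without normalization. Versions of these tools, the strand setting and the handling of reads that match several genes are not given in the sources used here, so reads shared between the similar ID genes may have been lost or split. Samples were grouped by their labels, and table columns were matched to them by name.

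SP and NSP libraries were compared by the quasi-likelihood test of edgeR 4.0.16 (R 4.3.3) on these counts, after TMM scaling and filterByExpr (min.count 10, min.total.count 15), without a covariate and with Benjamini-Hochberg adjustment over 9309 genes. The call was an adjusted p under 0.05 and a fold change over 1.3. CPM used TMM library sizes over the tested genes, and intervals and p-values are not adjusted where not said to be. The total counts per library, 1431823 to 2073526, limit the precision: 3 counts, taken as the limit that a count of 0 allows, cover counting error only. Single ratios within a library are printed and plotted from the counts as they are. The log2 ratios that were compared had 0.5 added to both counts and were tested by exact permutation in Python 3.11.15 (scipy 1.17.1). The fits were also run on simulated data with known changes between the groups and no effect of the replicate number, and the outcome is not given here.

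The members and lists were chosen with earlier results of these data known. Named genes were the 10 genes, every list gene called with or without the block, the 2 most abundant and the 1 most changed tested gene of each list, the 5 genes most like ID3, the 2 nearest tested neighbours of ID3 and those called within 1 Mb, and opposite-strand genes. LUZP1, TGFB2-AS1, RUNX2, SMAD2, RGMB-AS1, NAV2-AS1, NAV2-AS2, ATOH8 and the marker genes named were chosen after their values were seen. Symbols and GRCh37 positions came from GENCODE annotation mapped to that build, which found 55538 genes (96.1%), and genes without one held 4.06% of all counts. GDF2, GDF10, SCX and PECAM1 matched no gene. Upstream windows came from RefSeq (GRCh38.p14).

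Both groups carry replicate numbers 1 to 4. After subtracting group means, same-numbered SP and NSP libraries correlated at 0.380, 0.203, 0.322 and 0.321, each best with its own number, and were treated as pairs in the block. Replicates of a group differed by more than sampling noise (chi-square per degree of freedom 5.61 to 13.5). Alternatives were DESeq2's size factors, upper-quartile factors, TMM factors from genes without an opposite-strand exon, DESeq2 1.42.0, limma 3.58.1 voom with quality weights, no filter, at least 10 counts in every library, the replicate block and leaving out each library.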

Additional observations from a re-analysis of the deposited data

Results flagged for a closer look

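In 6 of 77 groups of 4 libraries examined, a single library was set apart from the rest. A rate of 1 in 20 would give about 3.85 such groups by chance, if values were continuous and groups independent. The groups share the same libraries, and ID4 and ID2-AS1 had hardly any counts, so this number is only a rough guide. The gap to the nearest library, as a share of the range of the group, was 0.935 for ID1 in SP cells (replicate 1), 0.845 for SMAD6 in NSP cells (replicate 3), 0.88 for CDKN2B in NSP cells (replicate 4) and 0.848 for ELOA-AS1 in NSP cells (replicate 3). It was 1 for ID4 in SP cells and 1 for ID2-AS1 in SP cells, since replicate 3 was the only SP library with a count of these genes. ID3 was not among the 6.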

How the results depend on the processing

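ID3 was called higher under every alternative, at log2 fold changes of 0.997 to 1.37, and no other of the 10 genes was called under any of them. What follows changed with a setting, and the cause was not tested. Without a filter on low counts, where more genes were tested, 303 genes were called higher and 381 lower. Of the list genes, 4 were called lower there (1 in the main test), namely TGFB2, GDF15, PMEPA1 and TGFBI. RGMB was called higher there beside ID3 and SMAD3, as was NAV2 outside the lists. In that fit the p-values rest almost wholly on a spread pooled over genes, not on that of each gene. For GDF15 the standard error of the log2 fold change was 0.21 there and 0.47 in the main test. For BAMBI it was 0.34 and 0.31. The replicate block called 548 genes higher and 652 lower, and 5 list genes higher and 7 lower (2 and 1 in the main test), which are given with their lists above. NAV2, LUZP1, CD14, VIM and ENSG00000005955.8 were called with the block too, and with it no other named gene moved across the threshold. The differences of the ratios are the same within pairs. DESeq2 called 2 list genes lower, TGFB1 and TGFB2, and voom 3. Leaving out single libraries gave 69 to 164 genes higher and 89 to 181 lower, with the fewest without NSP replicate 2, and 0 to 2 list genes lower. The log2 fold change turned sign for SMAD6 with voom (0.088), for RPL11 with factors from genes without an opposite-strand exon (-0.0095) and for ELOA-AS1 with voom (0.027). With single libraries left out it ran from -0.43 to 0.66 for ID1, -0.36 to 0.56 for SMAD6, -0.33 to 0.094 for ENG, -0.050 to 0.24 for SMAD4, -0.23 to 0.048 for FSTL3, -0.15 to 0.098 for SKI, -0.053 to 0.18 for RPL11 and -0.14 to 0.067 for ELOA-AS1. The difference of the log2 ratio of ID3 ran from 0.84 to 1.33 for SMAD6 and from 1.24 to 1.65 for BMPR2, where 4 libraries against 3 cannot reach the threshold, and from -0.31 to 0.52 for BMP4. It ran from 0.62 (without NSP replicate 1) to 1.53 (without SP replicate 1) for ID1, from 0.012 (without SP replicate 4) to 0.46 (without SP replicate 3) for ID2 and from 0.31 (without NSP replicate 1) to 0.85 (without NSP replicate 3) for BAMBI. The replicate number test called 0 of the genes with DESeq2, where only ID3 had an adjusted p and the others could not be called, and 1 to 3 with single libraries left out. The ratio to ID4 was not run because ID4 did not pass the filter. Low counts limit ID2, ID4, SMAD7 and BMPR1A most, at no more than 10 counts in any library. The parts of depth and of the strand setting in these low counts were not tested.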

Other observations

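TGFB2-AS1, a lncRNA whose exons lie across 701 bp of the exons of TGFB2 on the other strand, held 276 counts in the SP libraries and 631 in the NSP libraries, more than TGFB2 itself with 84 and 190. Its log2 fold change was -0.97 (adjusted p = 0.0171 from edgeR), beside -0.99 for TGFB2. Reads of this overlap cannot be assigned to either gene without the strand setting.

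ATOH8, a helix-loop-helix gene of the BMP response list, was picked out after its values were seen. It held 4, 5, 17 and 3 counts in SP replicates 1 to 4 and 1, 3, 9 and 0 in NSP replicates 1 to 4, and did not pass the filter. In all 4 pairs the SP library was higher, and without a filter the log2 fold change was 1.23 (adjusted p = 0.414 from edgeR).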
